A study of Mus musculus with 6 samples.

Results

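The pro-survival members of the BCL-2 family and its pore-forming effectors were examined in primary mouse melanocytes, the pigment cells of skin, as 7 genes of the 36528 gene models in the files. The members were chosen by function, with earlier results of these data known. The pro-survival genes are Bcl2, Mcl1, Bcl2l1 (BCL-XL) and Bcl2l2 (BCL-w), and the effectors are Bax, Bak1 (BAK) and Bok. All 7 were found by gene ID, and all 7 passed the filter on low counts that left 17121 genes tested. PolyA RNA from 3 BAP1 KO-labelled and 3 WT-labelled libraries was sequenced, KO standing for knockout and WT for wild type. BAP1 removes ubiquitin from histone H2A in the nucleus and is lost in several tumours. The sources used here do not say how Bap1 was disrupted, which strain and age of mice were used, or whether libraries came from separate animals or cultures. The p-values therefore reflect differences among these libraries only, and that spread may be technical.

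Cell death by the mitochondrial route is set off when BAX or BAK changes shape, joins into oligomers and opens pores in the outer mitochondrial membrane. The pro-survival proteins hold BAX and BAK in check, and BH3-only proteins bind the pro-survival proteins or the effectors to start the process. BOK resembles BAX and BAK, sits largely at the endoplasmic reticulum and is held in check less by the pro-survival proteins. In melanocytes Bcl2 is known as a target of the lineage factor MITF, and mice without Bcl2 lose their coat pigment.

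Libraries held 33987690 to 43773769 uniquely aligned reads. Bap1 itself was not lower under the knockout label, at 73.6, 77.3 and 72.5 CPM (counts per library total, scaled by TMM factors) in the 3 BAP1 KO-labelled libraries and 55.7, 55.6 and 55.8 CPM in the 3 WT-labelled ones. Since counts pool all exons, this does not mark the knockout, and each direction below rests on the labels alone. Of 8 melanocyte markers all were higher under the BAP1 KO label, with sums of 61110.0 to 61912 CPM in BAP1 KO-labelled and 6340 to 6441 CPM in WT-labelled libraries. Keratinocyte markers, of which 10 of 11 were tested and all 10 were lower, summed to 328 to 352 CPM in BAP1 KO-labelled and 7162 to 7210 CPM in WT-labelled libraries. All 9 fibroblast markers were lower too, with sums of 51.7 to 57.2 CPM in BAP1 KO-labelled and 1004 to 1031 CPM in WT-labelled libraries. Among the keratinocyte markers the 3 largest differences were those of Ivl, Epcam and Perp. Means were 0.739, 27.8 and 30.6 CPM in BAP1 KO-labelled and 90.5, 1305 and 913 CPM in WT-labelled libraries. Unlike these, the epidermal marker Krt1, the only one of that list not tested, was close to absent in both groups. It had 1 read in all BAP1 KO-labelled and 15 reads in all WT-labelled libraries together. Of 6 immune markers 5 were tested, 4 higher and 1 lower. The immune markers summed to 214 to 223 CPM in BAP1 KO-labelled and 48.2 to 52.5 CPM in WT-labelled libraries. The T cell marker Cd3e, not tested, had 0 reads in all BAP1 KO-labelled and 2 reads in all WT-labelled libraries together. Of 4 endothelial markers 2 were tested, 1 higher and 1 lower, and they summed to 12.0 to 13.0 CPM in BAP1 KO-labelled and 9.26 to 9.89 CPM in WT-labelled libraries. Of 4 Schwann cell markers edgeR called 2 higher and 1 lower, and they summed to 178 to 184 CPM in BAP1 KO-labelled and 115.0 to 117 CPM in WT-labelled libraries. These markers moved together with every result below, and their part in it was not tested. In bulk RNA, fewer cells of a type and less RNA per cell cannot be told apart.

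Every one of the 4 pro-survival genes was higher under the BAP1 KO label, while of the 3 effectors Bok was 5.50-fold lower, Bax slightly lower and Bak1 not past the threshold. Over all genes tested, edgeR called 39.4% higher and 42.1% lower at an adjusted p under 0.05, 81.5% in all, so a call by itself says little about these genes. Values of BAP1 KO-labelled and WT-labelled libraries were fully separate for 6 of 7 members, all but Bak1, and for 82.7% of all genes tested. The median absolute log2 difference was 0.49 over the members and 0.68 over all genes tested, and the median signed difference was 0.21 over the members and -0.03 over all genes.

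**Figure D1:**
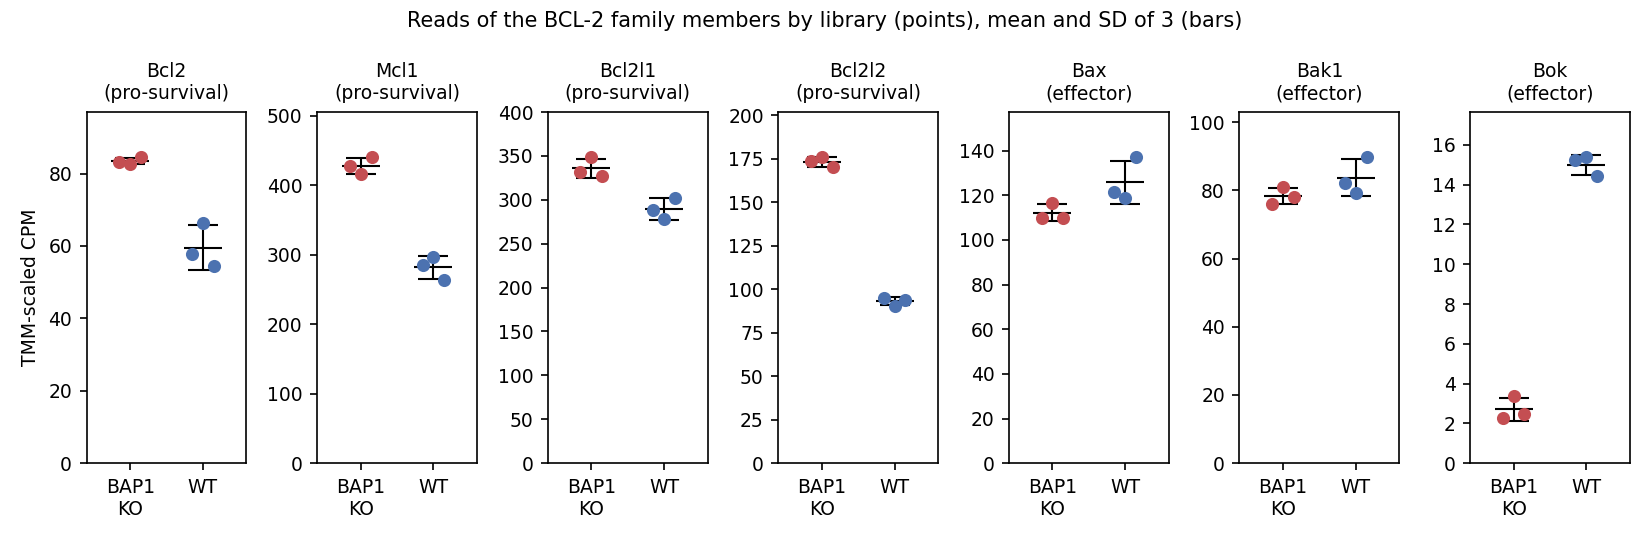
TMM-scaled CPM (vertical axis, from 0, its own scale for each gene) of the 7 members in each library, with BAP1 KO-labelled libraries in red and WT-labelled ones in blue; points are libraries and bars show the mean and SD of 3. The 4 pro-survival genes lay higher in every BAP1 KO-labelled library, Bok lay at 2.26 to 3.35 CPM there and at 14.4 to 15.4 CPM in WT-labelled libraries, and Bak1 overlapped.

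Bcl2l2 had the largest difference of the pro-survival genes. It encodes BCL-w (gene ID 12050, chromosome 14, 54883366 to 54890858 on GRCm38). Its reads came to 174, 176 and 170.2 CPM in the BAP1 KO-labelled libraries, against 95.1, 90.6 and 93.8 CPM in the WT-labelled libraries. Each group kept within a narrow range, and the ranges lay far apart. The fold was 1.86 (log2 0.89, SE 0.039, edgeR adjusted p = 3.05e-09). Of its annotated exon bases 13.3% overlap Gm20521, a gene model that spans Bcl2l2 and its neighbour Pabpn1. Pabpn1, a poly(A)-binding protein gene, was read at 188 ± 2.94 CPM in BAP1 KO-labelled and 208 ± 9.42 CPM in WT-labelled libraries (SD, n = 3 each), the opposite direction to Bcl2l2.

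Mcl1, which encodes a short-lived survival protein (gene ID 17210, chromosome 3, 95656944 to 95663179), was read at 428, 417 and 440.3 CPM in the BAP1 KO-labelled libraries, against 285, 297 and 264 CPM in the WT-labelled libraries. It had the most reads of the 7 genes in each BAP1 KO-labelled library. The 2 groups lay well apart, with a log2 difference of 0.60 (SE 0.047, edgeR adjusted p = 4.86e-07).

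Bcl2, the founding member (gene ID 12043, chromosome 1, 106538176 to 106714290), had 83.1, 82.7 and 84.5 CPM in the BAP1 KO-labelled libraries, against 57.8, 66.4 and 54.3 CPM in the WT-labelled libraries. The WT-labelled libraries were spread more widely, with replicate 2 the highest of them and still below every BAP1 KO-labelled library. The log2 difference was 0.49 (SE 0.066, edgeR adjusted p = 4.39e-05).

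Bcl2l1, whose main product is BCL-XL (gene ID 12048, chromosome 2, 152758732 to 152833803), differed least of the 4. It was read at 332, 348 and 327 CPM in the BAP1 KO-labelled libraries, against 288, 278 and 302 CPM in the WT-labelled libraries. The groups did not overlap, but the gap between them was no wider than the spread of the WT-labelled libraries. The log2 difference was 0.21 (SE 0.043, edgeR adjusted p = 8.04e-04). The count pools the long BCL-XL and the short, death-promoting BCL-XS transcripts, which these files do not part. None of the annotated exon bases of Mcl1, Bcl2l1 or Bok overlap another gene, and 6.09% of those of Bcl2 overlap D630008O14Rik.

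The pro-survival genes known for narrow expression were close to absent. These are Bcl2l10 and the copies Bcl2a1a, Bcl2a1b, Bcl2a1c and Bcl2a1d, none of which had enough reads to be tested. Together they made up 0.108 to 0.167 CPM in BAP1 KO-labelled and 0.0288 to 0.239 CPM in WT-labelled libraries. Bcl2a1c and Bcl2a1d had 0 reads in every library, a count that allows up to 3. The Bcl2a1 copies share up to 79.5% of their 50-base sequences, so reads from them need not align uniquely.

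Bok was the member with the largest difference in either direction. It encodes the third pore former (gene ID 51800, chromosome 1, 93685575 to 93695770). The files held 84, 143 and 89 reads in the BAP1 KO-labelled libraries, against 529, 578 and 595 reads in the WT-labelled libraries. Scaled to library size this was 2.26, 3.35 and 2.48 CPM in BAP1 KO-labelled libraries, against 15.2, 15.4 and 14.4 CPM in WT-labelled ones. Replicate 2 labelled BAP1 KO stood above its fellows yet far below the lowest WT-labelled library. The log2 difference was -2.46 (SE 0.12, edgeR adjusted p = 7.41e-09).

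Bax, the pore former that moves from cytosol to mitochondria (gene ID 12028, chromosome 7, 45461695 to 45466903), was read at 109.9, 116 and 109.9 CPM in the BAP1 KO-labelled libraries, against 121, 119 and 137 CPM in the WT-labelled libraries. The groups were parted by only a small gap, and replicate 3 labelled WT stood apart as the highest. The log2 difference was -0.17 (SE 0.057, edgeR adjusted p = 0.0194). The call was lost without replicate 1 or 3 labelled BAP1 KO, without replicate 1 or 3 labelled WT, and with the authors' own library factors (log2 -0.14, edgeR adjusted p = 0.0544). Without replicate 3 labelled WT the log2 difference was -0.07 (edgeR adjusted p = 0.121). Of the annotated Bax exon bases 12.2% overlap Gm45808.

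Bak1, which encodes the pore former that resides on mitochondria (gene ID 12018, chromosome 17, 27019812 to 27028627), was read at 76.1, 80.9 and 78.0 CPM in the BAP1 KO-labelled libraries, against 82.2, 79.1 and 89.7 CPM in the WT-labelled libraries. The ranges overlapped. Its log2 difference of -0.10 (SE 0.053) did not pass (edgeR adjusted p = 0.116), which does not show that the level was equal. It passed without replicate 2 labelled WT (log2 -0.13, edgeR adjusted p = 0.0405). Bak1 is uncertain in that 25.5% of its exon bases overlap Ggnbp1. Ggnbp1 itself was read at only 5.71 ± 0.592 CPM in BAP1 KO-labelled and 4.40 ± 0.372 CPM in WT-labelled libraries (SD, n = 3 each).

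**Figure D2:**
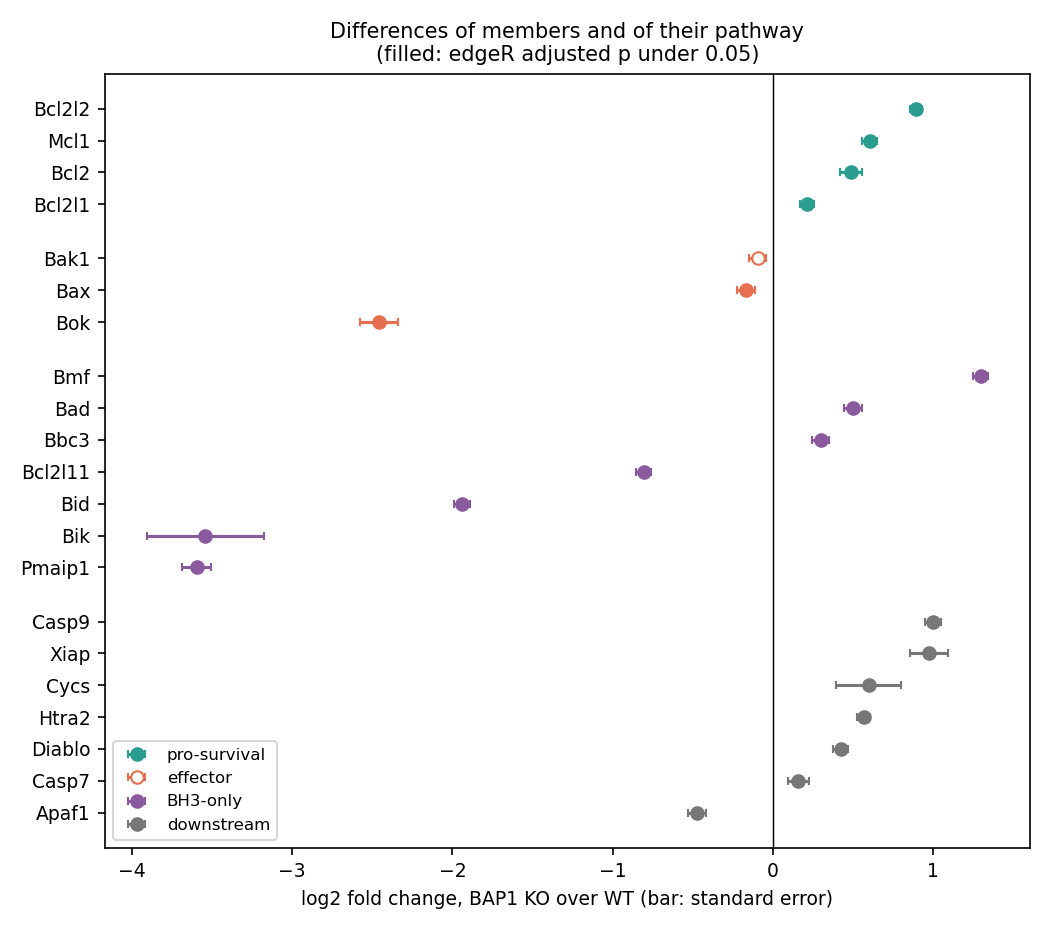
Log2 fold change, BAP1 KO over WT (horizontal axis), of the 7 members, 7 tested BH3-only genes and 7 genes that act after the pore; bars are standard errors and filled points passed edgeR's adjusted p under 0.05. The pro-survival genes lie between 0.21 and 0.89, Bax and Bak1 close to 0, and Bok at -2.46.

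The regions just before the starts of Bcl2, Bax and Bok are shown as examples of a higher, a barely changed and a far lower gene. Bcl2l2 (log2 0.89) and Mcl1 (0.60) were higher by more than Bcl2 (0.49), and their windows are not printed. The sequences are from RefSeq on GRCm38.p6, the 250 bases before each annotated start, 5′ to 3′ on the gene's strand. Capitals mark every match, on either strand, to the GC box GGGCGG (reverse CCGCCC), the cAMP response core TGACG (reverse CGTCA), and the E-boxes CACGTG and CATGTG (reverse CACATG), the kind of site that MITF can bind. The longer E-box TCACGTGA, which contains CACGTG, is capitalised as a whole.
Bcl2, chr1:106714291-106714540, minus strand: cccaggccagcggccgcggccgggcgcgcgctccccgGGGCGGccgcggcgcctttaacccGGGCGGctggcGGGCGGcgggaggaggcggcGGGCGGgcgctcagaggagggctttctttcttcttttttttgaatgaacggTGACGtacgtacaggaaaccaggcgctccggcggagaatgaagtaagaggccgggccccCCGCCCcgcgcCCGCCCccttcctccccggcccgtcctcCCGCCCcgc
Bax, chr7:45466899-45467148, minus strand: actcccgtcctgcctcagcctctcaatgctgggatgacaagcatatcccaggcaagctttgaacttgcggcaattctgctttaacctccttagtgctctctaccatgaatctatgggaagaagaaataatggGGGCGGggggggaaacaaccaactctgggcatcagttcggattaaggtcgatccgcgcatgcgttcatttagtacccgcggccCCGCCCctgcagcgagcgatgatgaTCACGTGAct
Bok, chr1:93685325-93685574, plus strand: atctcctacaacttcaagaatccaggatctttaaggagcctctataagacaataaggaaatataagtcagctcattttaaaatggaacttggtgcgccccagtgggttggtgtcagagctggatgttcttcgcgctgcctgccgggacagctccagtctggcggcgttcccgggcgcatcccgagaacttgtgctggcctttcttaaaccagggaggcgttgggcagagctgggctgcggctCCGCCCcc
The Bcl2 window is rich in G and C (74.8%, against 54% for Bax and 55.2% for Bok). It holds 7 GC boxes and 1 TGACG, which starts 107 bases before the annotated start. Bax holds 2 GC boxes and 1 TCACGTGA, which starts 10 bases before its annotated start, and Bok holds 1 GC box. The annotated starts used for Bax, Mcl1, Bcl2l1 and Bcl2l2 lie inside the gene spans given above, so their windows reach into those spans. Among 32851 mouse windows of the same length, GGGCGG was present in 32.7%, TGACG in 17.8%, CATGTG in 12.25%, CACGTG in 6.02% and TCACGTGA in 0.79%. Of the other members, Mcl1 and Bcl2l2 had 1 GC box each, Bak1 had no match to any of these letters, and the last of 3 annotated starts of Bcl2l1 had 1 CATGTG at 108 bases before it. A match describes letters and not a bound site, and a window without one says nothing about a factor.

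Levels of different genes were compared per length, with the authors' size-factor-adjusted RPKM. Under the BAP1 KO label the order was Bax (121 ± 3.95 RPKM), Mcl1 (105 ± 2.84), Bcl2l1 (53.4 ± 1.74), Bcl2l2 (35.5 ± 0.614), Bak1 (31.7 ± 0.902), Bcl2 (10.1 ± 0.103) and Bok (1.78 ± 0.376), as mean and SD of 3 libraries. Under the WT label it was Bax (133 ± 12.1 RPKM), Mcl1 (67.3 ± 3.17), Bcl2l1 (45.1 ± 2.59), Bak1 (33.1 ± 2.61), Bcl2l2 (18.7 ± 0.717), Bok (9.67 ± 0.225) and Bcl2 (7.08 ± 0.628). The ranges of neighbouring genes overlapped in neither order. The orders differ at 2 places. Bcl2l2 stood above Bak1 and Bcl2 above Bok under the BAP1 KO label, and both pairs were the other way round under the WT label. On this scale Bok exceeded 35.1% of all tested genes under the BAP1 KO label and 64.2% under the WT label, whereas Mcl1 exceeded 97.6% under the BAP1 KO label and 95.6% under the WT label. Bax overlapped between the groups on the authors' scale, at 119, 126 and 119 RPKM under the BAP1 KO label and 129, 124 and 147 RPKM under the WT label.

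These orders rest on the gene lengths the authors used. From their values Mcl1 was 4.44 times as long as Bax, while merged GENCODE M21 exons give 2.17 times. With the GENCODE lengths Mcl1 came before Bax in both groups and Bcl2l1 before Bax under the BAP1 KO label, and both exchanges of place stayed. With reads not divided by length neither exchange was present, since Bcl2l2 stood above Bak1 and Bcl2 above Bok in both groups.

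**Figure D3:**
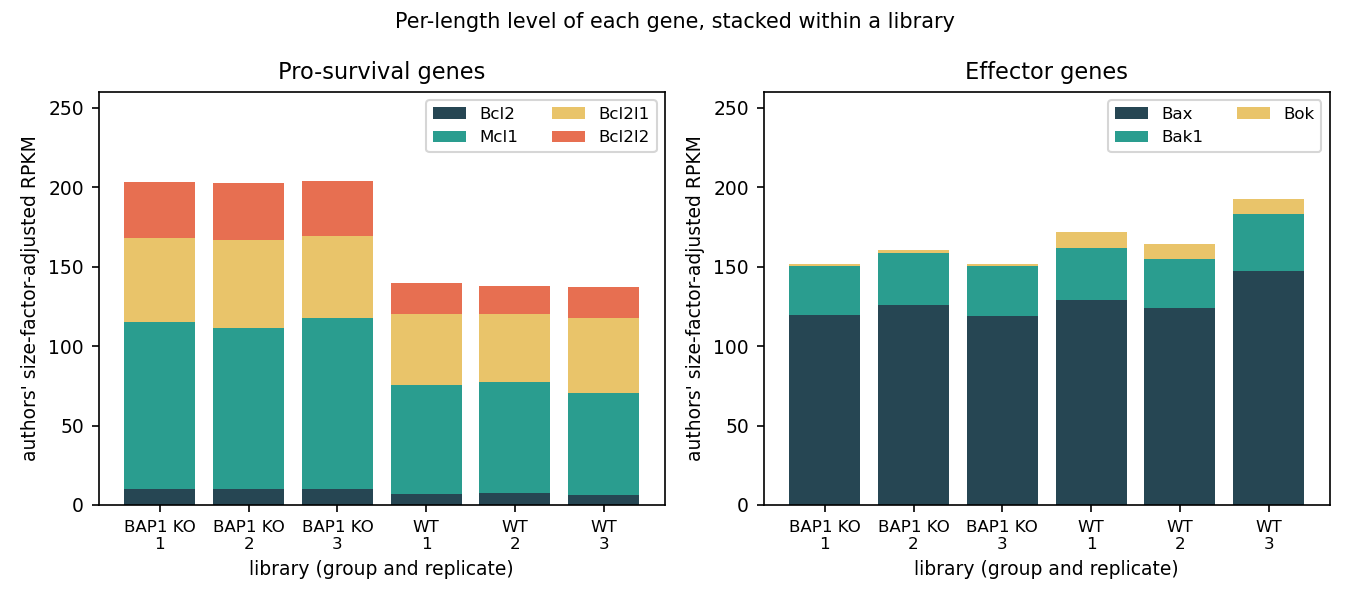
Authors' size-factor-adjusted RPKM (vertical axis, from 0) of the pro-survival genes (left) and effectors (right), stacked within each of the 6 libraries, BAP1 KO-labelled first. The pro-survival stack averaged 203.5 RPKM under the BAP1 KO label and 138 RPKM under the WT label, with Mcl1 as its largest layer in each library, and the Bok layer nearly vanished under the BAP1 KO label.

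The summed per-length level of the 4 pro-survival genes was 203.5 ± 0.659 RPKM under the BAP1 KO label and 138 ± 1.24 RPKM under the WT label. That of the effectors was 155 ± 5.15 RPKM under the BAP1 KO label and 176 ± 14.5 RPKM under the WT label (SD, n = 3 each). Within libraries the log2 ratio of pro-survival over effector sums was 0.42, 0.33 and 0.43 in the BAP1 KO-labelled libraries, against -0.30, -0.25 and -0.49 in the WT-labelled libraries. The groups were well apart, and the mean ratio was 1.31 in BAP1 KO-labelled and 0.785 in WT-labelled libraries, a difference of 0.74 on the log2 scale. A ratio within a library does not depend on how libraries are scaled. With 3 libraries against 3, a two-sided exact permutation test cannot give less than 0.1, and it gave p = 0.1 (0.112 after Benjamini-Hochberg adjustment over the 29 shares and ratios computed). Whether effectors or pro-survival transcripts are in the majority depends on gene length: with GENCODE lengths the ratio was 2.35 in BAP1 KO-labelled and 1.41 in WT-labelled libraries, while the log2 difference between groups was 0.73. Leaving out Bok, the log2 difference was 0.68, so most of it did not rest on Bok.

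Shares inside each class show which gene gained. Mcl1 made up 51.5, 50.1 and 52.5% of the pro-survival level in the BAP1 KO-labelled libraries and 49.0, 50.6 and 46.5% in the WT-labelled ones, and these overlapped (exact permutation p = 0.2, adjusted 0.207). Bcl2l2 took 17.4 ± 0.354% in BAP1 KO-labelled libraries and 13.5 ± 0.51% in WT-labelled libraries. Bcl2l1 took 26.2 ± 0.938% in BAP1 KO-labelled libraries and 32.6 ± 2.02% in WT-labelled libraries, so its share was smaller although its level was higher. The share of Bcl2 was 4.99 ± 0.0345% in BAP1 KO-labelled and 5.12 ± 0.451% in WT-labelled libraries (SD, n = 3 each) and overlapped (exact permutation p = 0.9, adjusted 0.9). Neither the Bcl2l2 nor the Bcl2l1 shares overlapped between groups, and for each the exact permutation p was 0.1.

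Among effectors Bok took 0.985, 1.37 and 1.07% in the BAP1 KO-labelled libraries, against 5.73, 5.92 and 4.89% in the WT-labelled libraries. Bax took 78.4 ± 0.251% in BAP1 KO-labelled and 75.7 ± 0.654% in WT-labelled libraries, and Bak1 20.4 ± 0.237% in BAP1 KO-labelled and 18.8 ± 0.186% in WT-labelled libraries (SD, n = 3 each; exact permutation p = 0.1 for each of the 3). The larger Bax share went with the smaller Bok share. Of Bax and Bak1 alone, the Bax share was lower in BAP1 KO-labelled libraries (difference -0.78 percentage points).

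Single pairs showed how uneven the shift was. The ratio of Bcl2 to Bax, often used as an index of survival, was 0.0836 in BAP1 KO-labelled and 0.0531 in WT-labelled libraries (log2 difference 0.66). Mcl1 over Bak1, a pair whose proteins bind each other, was 3.30 in BAP1 KO-labelled and 2.03 in WT-labelled libraries (log2 difference 0.70). Bcl2l1 over Bak1, another binding pair, was 1.69 in BAP1 KO-labelled and 1.36 in WT-labelled libraries (log2 difference 0.31). Bcl2l2 over Bax was 0.292 in BAP1 KO-labelled and 0.140 in WT-labelled libraries (log2 difference 1.06). Bax over Bak1 differed least, at 3.83 in BAP1 KO-labelled and 4.02 in WT-labelled libraries (log2 difference -0.07). Each of these pairs separated the groups without overlap, as did all 12 pro-survival over effector pairs, for which the exact permutation p was 0.1. Those 12 pairs share members, so they are not separate evidence. Of all 21 pairs of members 20 separated the groups, and so did 82.7% of all genes tested, taken singly. Separation by itself therefore says little about the pro-survival over effector pairs.

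**Figure D4:**
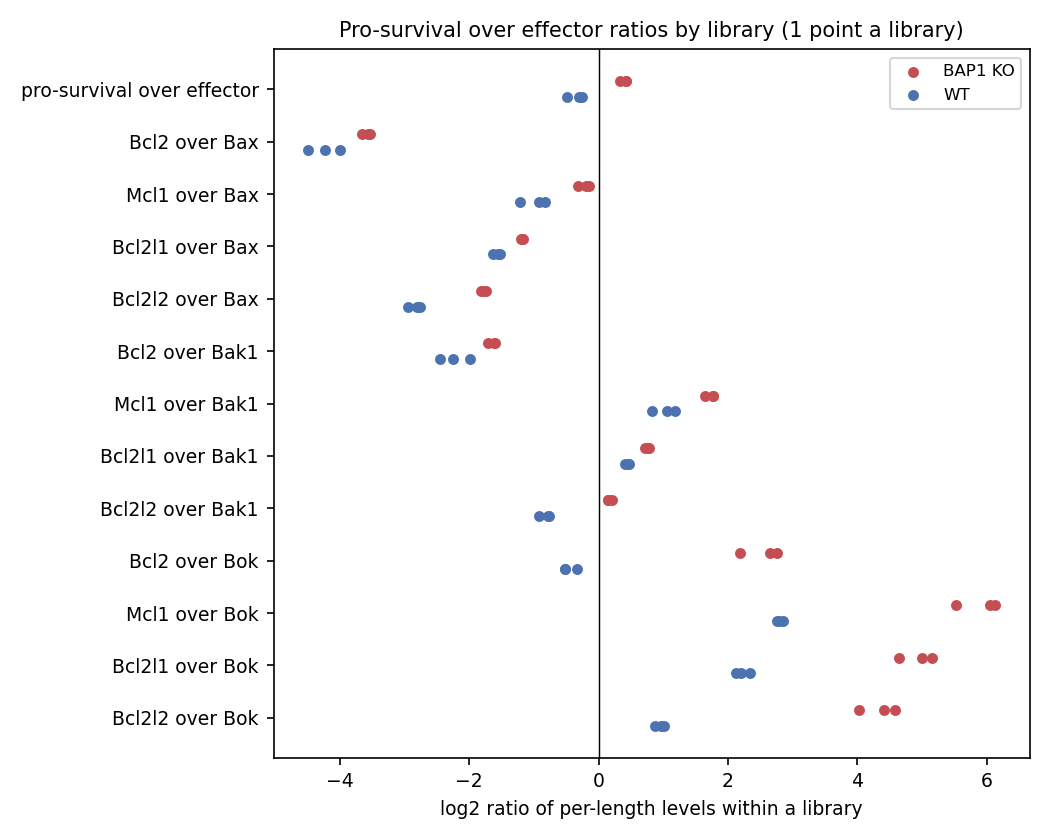
Log2 ratio of per-length levels (horizontal axis) for the class sums and for each pro-survival over effector pair; each point is a library, BAP1 KO-labelled in red and WT-labelled in blue. In every pair the BAP1 KO-labelled points lie to the right, by 0.31 for Bcl2l1 over Bak1 up to 3.39 for Bcl2l2 over Bok.

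The BH3-only genes, which encode the triggers of the effectors, went both ways. Of 8 listed, 7 could be tested. The BAP1 KO-labelled libraries had more of 3 and less of 4 (median log2 difference -0.81). Pmaip1 (NOXA, which binds MCL1) was read at 26.8, 25.4 and 28.4 CPM in the BAP1 KO-labelled libraries, against 325, 366 and 284 CPM in the WT-labelled libraries. It was 12.1-fold lower (log2 -3.60, SE 0.090, edgeR adjusted p = 3.42e-11), whereas its partner Mcl1 was higher. Bik was lower (log2 difference -3.54) but rests on 11 reads in all BAP1 KO-labelled and 130 reads in all WT-labelled libraries. Bid, which links death receptors to BAX and BAK, was lower (log2 -1.94, SE 0.052), and 17.7% of its exon bases overlap Bcl2l13. The higher genes, chosen after their values were seen, were Bmf (1.30), Bad (0.50, with 20.5% of its exon bases overlapping Gpr137) and Bbc3 (PUMA, 0.30). The remaining lower gene was Bcl2l11 (BIM, -0.81), and Hrk was not tested.

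Of 7 genes acting after the pore opens, 6 were higher and 1 lower (median log2 difference 0.57). Casp9, the initiator caspase of this route, was read at 57.2, 59.8 and 56.8 CPM in the BAP1 KO-labelled libraries, against 28.8, 30.3 and 27.8 CPM in the WT-labelled libraries (edgeR adjusted p = 9.80e-09), with means of 57.9 ± 1.66 CPM in BAP1 KO-labelled and 29.0 ± 1.26 CPM in WT-labelled libraries. Xiap, which inhibits caspases, was higher (log2 0.97, SE 0.12). Cycs, the cytochrome c gene, was higher (log2 0.60, SE 0.20, edgeR adjusted p = 0.0184) but rests on 167 reads in all BAP1 KO-labelled and 108 reads in all WT-labelled libraries, and the groups overlapped. That call was lost without replicate 1 (edgeR adjusted p = 0.0672) or 2 (0.0707) labelled BAP1 KO, and 26.2% of its 50-base sequences are shared with Gm10053. The lower gene, named after its value was seen, was Apaf1, whose protein assembles the caspase-activating apoptosome (log2 -0.47, SE 0.056).

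Among 11 genes whose proteins meet BCL-2 family members at membranes, 5 were higher, 3 lower and 3 did not pass (median log2 difference -0.01). Itpr3, an inositol trisphosphate receptor of the calcium store, was lower (log2 -1.46, SE 0.050), while its relative Itpr1 was higher (log2 0.91, SE 0.040). Vdac3, a channel of the outer mitochondrial membrane, was higher (log2 0.72, SE 0.059), and 12.8% of its 50-base sequences are shared with Vdac3-ps1. Vdac2, which holds BAK at mitochondria, was read at 104 ± 2.92 CPM in BAP1 KO-labelled and 109 ± 2.22 CPM in WT-labelled libraries (edgeR adjusted p = 0.136).

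Of 9 genes that set the turnover of MCL1 protein, 4 were higher, 2 lower and 3 did not pass (median log2 difference 0.37). The ubiquitin ligase Huwe1 was higher (log2 0.88, SE 0.034), at 1129.5 ± 30.7 CPM in BAP1 KO-labelled and 614 ± 9.27 CPM in WT-labelled libraries. Btrc was higher (log2 0.80, SE 0.052), and Fbxw7 was lower (log2 -0.76, SE 0.050). These enzymes act on protein, which was not measured here.

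For each member the gene with the most similar profile over the 6 libraries was found among 9578 others, by Euclidean distance of centred log2(CPM + 1) values. They were Aida for Bcl2 (distance 0.047), Ate1 for Mcl1 (0.041), Mindy1 for Bcl2l1 (0.034), Abhd16a for Bcl2l2 (0.030), Ranbp3 for Bax (0.050), Naxe for Bak1 (0.039) and Cyp4f17 for Bok (0.198). The median distance from Bok to all candidates was 2.74, and from the other members it was 0.67 to 1.10. With only 2 groups, such likeness mostly reflects a similar difference between them: Cyp4f17 differed by -2.32 on the log2 scale and Bok by -2.46.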

How the data were processed

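Per the labels' protocols, column-purified RNA treated with DNase was made into TruSeq v2 libraries, which do not mark strand, and read as single ends of 50 bases. Per the submitters' processing notes, GSNAP and GRCm38 were used; the sources used here name no aligner version, counting tool or annotation. Per the file headers, the authors deposited for each gene model the count of uniquely aligned reads and a size-factor-adjusted RPKM. The deposited RPKM and count differ by 1 factor per library and 1 per gene.

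Symbols came from RefSeq on GRCm38.p6 by gene ID (31049 models; 78 more through GENCODE M21). Overlap percentages count merged GENCODE M21 exon bases that lie in exons of any other gene, on either strand. The gene named with each percentage is the one with the largest overlap. Counts were filtered with filterByExpr (minimum count 10, minimum total 15), scaled by TMM (0.975 to 1.03) and tested with edgeR 4.0.16 in R 4.3.3 (glmQLFit, glmQLFTest, no covariate), on all 17121 genes, at an adjusted p under 0.05. Each SE was obtained by dividing the size of the log2 fold change by the root of its F statistic. Shares and ratios used the authors' RPKM, with two-sided exact permutation tests (scipy 1.17.1). The edgeR script was checked on simulated counts in which far fewer genes differed than here. That check covers the code and not the calls in these data. Replicates were numbered in accession order and are not paired. No library repeated another: chi-square per degree of freedom was 2.01 to 17.4 for pairs within a group. The rule for named genes took the 7 members, Bap1, up to 3 called genes of each list by size, and the nearest profile of each member among genes of at least 10 CPM. Members and lists were chosen with earlier results of these data known. One gene that acts after the pore and one Schwann cell marker are not reported here and are left out of their lists' counts, sums and medians. Alternatives were other library scalings, other filters, DESeq2 1.42.0, limma-voom (limma 3.58.1), edgeR's robust option, an adjusted p under 0.01, leaving out each library, and other length scales; the GENCODE lengths, the ratios without Bcl2l2 and the shares without Bok were added after the data were examined.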

Additional observations from a re-analysis of the deposited data

How the results depend on the processing

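No paired analysis was possible because the labels give no replicate numbers. The 4 pro-survival genes were higher and Bok lower, past the threshold, under every scaling, filter, tool, stricter threshold and left-out library tried. The size of the small differences depended on scaling and filter. Over these, Bcl2l1 ran from 0.14 (at least 5 CPM in 3 libraries) to 0.25 (no filter) on the log2 scale. Bax ran from -0.24 to -0.13 over the same 2 settings. Without 1 library the log2 differences ran from 0.46 to 0.58 for Bcl2, 0.59 to 0.65 for Mcl1, 0.19 to 0.28 for Bcl2l1, 0.88 to 0.93 for Bcl2l2, -2.65 to -2.34 for Bok, -0.20 to -0.068 for Bax and -0.13 to -0.010 for Bak1. Bax did not pass with the authors' library factors (log2 -0.14) or at an adjusted p under 0.01 (log2 -0.17), and Bak1 passed with library totals (-0.16) and with at least 5 CPM in 3 libraries (-0.17). The number of members lower was therefore 1 with the authors' factors and 1 at the stricter threshold, and 1 to 3 without 1 library. In percentage points, the Bak1 share of effectors differed by 3.28 with reads not divided by length, 2.62 with GENCODE lengths and 0.78 without Bok, where the Bax share turned to -0.78. The Bok share differed by -5.32 with undivided reads and -5.29 with GENCODE lengths, and the Mcl1 share, 2.64 with all 4 genes, by 5.86 without Bcl2l2. Without 1 library the Mcl1 share differed by 1.54 (without replicate 3 labelled WT) to 3.59, and the Bcl2 share, -0.14 with all libraries, by -0.31 (without replicate 3 labelled WT) to 0.12 (without replicate 2 labelled WT). The log2 ratio of pro-survival over effector sums differed by 0.67 to 0.79 without 1 library and by 0.68 without Bcl2l2. Of divergent family genes 0 were higher by edgeR's main fit, but 1 was higher with DESeq2 size factors, upper-quartile factors, the authors' factors or limma-voom, 2 without a filter, and 0 to 2 without 1 library. The number of membrane partners lower, 3 in the main fit, was 5 with the 5 CPM filter and 4 with library totals. It was 2 with each library left out in turn. The same 2 was found with DESeq2, DESeq2 size factors, the authors' factors, no filter or an adjusted p under 0.01. Few reads limit the precision for Bik, Cycs and the Bcl2a1 genes.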

Other observations

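The divergent relatives of the family were measured as well. Of 6 listed, 5 were tested and 2 were lower, with 0 higher by edgeR. Bcl2l15 was read at 2.32, 2.02 and 2.15 CPM in the BAP1 KO-labelled libraries, against 58.0, 57.3 and 57.3 CPM in the WT-labelled libraries. It was thus 26.6-fold lower (edgeR adjusted p = 4.80e-13), a larger difference than that of any of the 7 members. Of its exon bases 21% overlap Gm43064. Bcl2l13, a mitochondrial member of the family, was lower (log2 -0.16, SE 0.039), at 74.1 CPM in BAP1 KO-labelled and 82.9 CPM in WT-labelled libraries. Of its exon bases 6.91% overlap Bid, which was lower by far more (log2 -1.94). The part of reads from that overlap in the Bcl2l13 difference was not tested.

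The nearest tested protein-coding genes on both sides of each member were looked up after the data were examined. The neighbours of Bok, Thap4 and Stk25, differed by -1.25 and 0.14 on the log2 scale, so Bok at -2.46 lay between a lower and a slightly higher gene. Kdsr, 6.1 kb from Bcl2, was lower by -0.23, and Phlpp1 on the other side was not past the threshold at -0.06, while Bcl2 was higher. Both neighbours of Mcl1 were higher, Adamtsl4 by 1.95 and Ensa by 0.54. Next to Bcl2l1, Tpx2 was higher by 0.77 and Cox4i2 was not past the threshold at -0.30. Bcl2l2 lay between Ppp1r3e, higher by 0.77, and Pabpn1, at -0.14. Bak1 lay between Itpr3, at -1.46, and Ggnbp1, at 0.37. Of all genes tested 81.5% were called, so a called neighbour by itself says little. Both neighbours of Bax were higher as well, Dhdh by 1.87 and Ftl1, a ferritin light chain gene 1.8 kb away, by 0.95, whereas Bax was lower by -0.17.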
